A study of Mus musculus with 2 samples.

Results

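The 10 genes described here are interferon-inducible GTPases of the mouse: the guanylate-binding proteins Gbp2, Gbp3, Gbp4, Gbp5 and Gbp7, and the immunity-related GTPases Igtp, Irgm1, Irgm2, Iigp1 and Ifi47. They were taken by symbol from the 32285 genes of single-cell RNA libraries of mouse carotid arteries, and each symbol matched 1 row. They were chosen by earlier results of the same libraries, among them the lower Igtp level measured in endothelial cells of EC-Cx43-KO against higher levels in myeloid and stromal cells, so their levels are given as descriptions. The EC-Cx43-KO group carried CDH5 Cre+ and Cx43fl/fl, which removes the gap junction protein connexin 43 (gene Gja1) where a Cre recombinase driven by the promoter of the endothelial gene Cdh5 is active; the series text calls this knockout inducible. The control group was CDH5 Cre- Cx43fl/fl, so both groups carried the floxed allele. In both groups the carotid artery had an endothelial injury by temporary ligation and was taken 18 hours later, digested briefly, pooled by genotype, freed of red cells and frozen before sequencing. Each group is 1 library, so no difference between the groups has a replicate check. The names EC-Cx43-KO and control stand for the libraries with those labels, and neither the sex nor the number of the animals in each was given in the sources used here.

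Guanylate-binding proteins and immunity-related GTPases are made in response to interferons, with the factors IRF1 and IRF9 taking part, in many cell types of the mouse. They gather on vacuoles that hold intracellular microbes and help to break them, and several guanylate-binding proteins also feed inflammasome activation by caspase-11. Among the immunity-related GTPases, Irgm1, Irgm2 and Igtp (Irgm3) are regulators that sit on the cell's own membranes and hold back the effectors, of which Iigp1 (Irga6) and Ifi47 (Irgd) are members. Interferon-gamma comes mainly from T and NK cells, while type I interferons can come from most cell types, and both can induce these GTPases.

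Promoters are shown because the members moved together in several cell types; the windows run from 250 bases before to 50 bases after the start site, from RefSeq on GRCm38.p6, and 8 of the 10 members have one (Gbp4 and Iigp1 are named only). Capitals mark 2 motifs searched on both strands: the core of the interferon-stimulated response element (GAAA, any 2 bases, then GAAA), and the gamma-activated site, TTCNNNGAA. The windows are Gbp2 (chr3:142620413-142620712), Gbp5 (chr3:142496684-142496983), Igtp (chr11:58199306-58199605) and Irgm2 (chr11:58214727-58215026) on the plus strand, Irgm1 (chr11:48871371-48871670) on the minus strand and Ifi47 (chr11:49076337-49076636) on the plus strand, each written 5′ to 3′ on the gene's strand.
Gbp2: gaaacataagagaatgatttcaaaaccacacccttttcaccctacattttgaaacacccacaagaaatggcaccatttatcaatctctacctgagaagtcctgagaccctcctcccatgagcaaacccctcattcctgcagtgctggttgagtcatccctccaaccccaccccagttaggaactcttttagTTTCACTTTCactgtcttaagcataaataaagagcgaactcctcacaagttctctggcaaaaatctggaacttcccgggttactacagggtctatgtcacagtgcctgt
Gbp5: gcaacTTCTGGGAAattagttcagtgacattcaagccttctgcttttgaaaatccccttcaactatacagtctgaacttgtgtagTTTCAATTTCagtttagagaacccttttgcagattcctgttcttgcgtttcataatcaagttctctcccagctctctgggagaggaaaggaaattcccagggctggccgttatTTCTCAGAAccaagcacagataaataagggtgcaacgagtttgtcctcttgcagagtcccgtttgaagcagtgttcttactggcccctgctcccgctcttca
Igtp: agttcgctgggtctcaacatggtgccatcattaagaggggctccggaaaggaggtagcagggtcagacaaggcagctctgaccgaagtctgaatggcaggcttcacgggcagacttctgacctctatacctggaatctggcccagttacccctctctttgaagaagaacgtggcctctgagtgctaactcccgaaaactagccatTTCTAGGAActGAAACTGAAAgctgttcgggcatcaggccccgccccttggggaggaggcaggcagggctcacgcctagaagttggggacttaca
Irgm2: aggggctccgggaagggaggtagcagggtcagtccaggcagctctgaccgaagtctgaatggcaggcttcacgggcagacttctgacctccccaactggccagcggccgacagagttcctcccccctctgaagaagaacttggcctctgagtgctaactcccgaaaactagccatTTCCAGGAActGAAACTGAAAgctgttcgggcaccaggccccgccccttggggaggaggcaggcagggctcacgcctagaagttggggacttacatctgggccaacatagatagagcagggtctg
Irgm1: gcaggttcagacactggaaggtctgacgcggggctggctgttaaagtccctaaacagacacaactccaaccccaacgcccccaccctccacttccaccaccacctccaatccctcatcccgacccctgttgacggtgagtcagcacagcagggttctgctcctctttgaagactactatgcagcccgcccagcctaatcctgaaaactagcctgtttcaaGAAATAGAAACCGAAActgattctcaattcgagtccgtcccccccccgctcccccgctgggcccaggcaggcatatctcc
Ifi47: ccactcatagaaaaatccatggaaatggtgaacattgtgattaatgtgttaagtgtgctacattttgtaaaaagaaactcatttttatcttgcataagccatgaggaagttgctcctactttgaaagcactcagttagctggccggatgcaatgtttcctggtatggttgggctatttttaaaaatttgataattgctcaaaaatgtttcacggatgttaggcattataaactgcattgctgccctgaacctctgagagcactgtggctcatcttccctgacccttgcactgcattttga

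The response element core was in a window of 7 of the 8 members, as it was in 3.99% of the 27025 genes with a window. The gamma-activated site was in Gbp5, Gbp7, Igtp and Irgm2, 4 of the 8, and in 9.55% of all genes. The Igtp and Irgm2 windows were alike in 244 of 265 aligned bases (92.1%), and in both a gamma-activated site lies directly before a response element core. Ifi47 had neither set of letters in its window.

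In the GRCm38 annotation Gbp5, Gbp7, Gbp3 and Gbp2 lie in a row on the plus strand of chromosome 3, between 142493978 and 142638008. Gbp4 lies on the minus strand of chromosome 5 at 105115767 to 105139586 and overlaps Gbp8 and Gbp9 on that strand. Igtp and Irgm2 overlap on the plus strand of chromosome 11, where Igtp runs over 58199556 to 58207591 and Irgm2 over 58199618 to 58222782, while Irgm1 (48861968 to 48871683, minus strand) and Ifi47 (49076587 to 49096974, plus strand) lie apart on that chromosome. Iigp1 lies on chromosome 18 at 60376027 to 60392634. Counting reads at 3′ ends can split or lose reads where copies are alike: of the 60-base words in the last 500 bases of the annotated transcripts, 15.1% of those of Gbp4 also occurred in another gene, all of them family members or a predicted gene, against 3.89% of those of Ifi47 (shared with Olfr56), 2.58% of those of Gbp3 (shared with Gbp7) and under these shares for the other members. The Gbp4 values are uncertain to that extent. Igtp and Irgm2 overlap on 1 strand, but 0 of their 467 and 452 words occurred in another gene.

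The EC-Cx43-KO library held 8315 barcodes with 54392831 UMIs (unique molecular identifiers, a count of captured transcripts) and the control library 7298 barcodes with 48862850, at medians of 4590 and 4483 UMIs per barcode. After filters 7236 and 6376 cells were kept, and 17 barcodes occurred in both libraries. Cell classes were named from marker genes and are called endothelial (EC)-like, smooth muscle (SMC)-like and so on: EC-like cells numbered 489 in EC-Cx43-KO and 398 in control. The neutrophil-like class held 1289 and 1102 cells, the fibroblast-like class 1594 and 1386, the monocyte/macrophage-like class 1745 and 1412, and the SMC-like class 549 and 411. All 12 EC markers, 9 SMC markers, 8 fibroblast markers, 12 monocyte/macrophage markers and 8 neutrophil markers were at 10 CPM (UMIs per 1000000 of a class) or more in both libraries. The targeted gene Gja1 was not lower in EC-like cells of the library labelled EC-Cx43-KO: it had 37.6 CPM (31.9 to 44.0; 156 UMIs) there and 22.5 CPM (18.1 to 27.7; 89 UMIs) in control, and without the EC-like cluster led by capillary genes 18.1 and 16.6 CPM, a log2 ratio of 0.12 (-0.38 to 0.63). The labels do not say which part of Gja1 was removed, and a 3′ count outside it checks nothing. Ranges in brackets are 95% intervals that cover counting error only.

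The 10 genes had 22024 UMIs in the EC-Cx43-KO library and 11732 in the control library. In neutrophil-like, monocyte/macrophage-like, fibroblast-like and SMC-like cells most members were at least 1.5-fold higher in EC-Cx43-KO, the size used here to call a difference for a gene with at least 20 UMIs over both libraries. In EC-like cells 9 of the 10 were lower in EC-Cx43-KO, by less than 1.5-fold except for Igtp. The lower Igtp level was known when the members were chosen. The median log2 ratio of all genes tested was also below 0 there (-0.050), and the share of all genes below 0 was not counted. Summed over the 10 genes, the level in EC-like cells was 454 CPM (434 to 475) in EC-Cx43-KO and 563 CPM (540 to 587) in control, a log2 ratio of -0.31 (-0.40 to -0.22). In SMC-like cells the sums were 330 CPM (314 to 345) and 112 CPM (102 to 123), in fibroblast-like cells 483 CPM (472 to 494) and 249 CPM (241 to 257). In monocyte/macrophage-like cells they were 434 CPM (422 to 446) and 221 CPM (212 to 230), and in neutrophil-like cells 490 and 268 CPM, in EC-Cx43-KO and control.

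**Figure D1:**
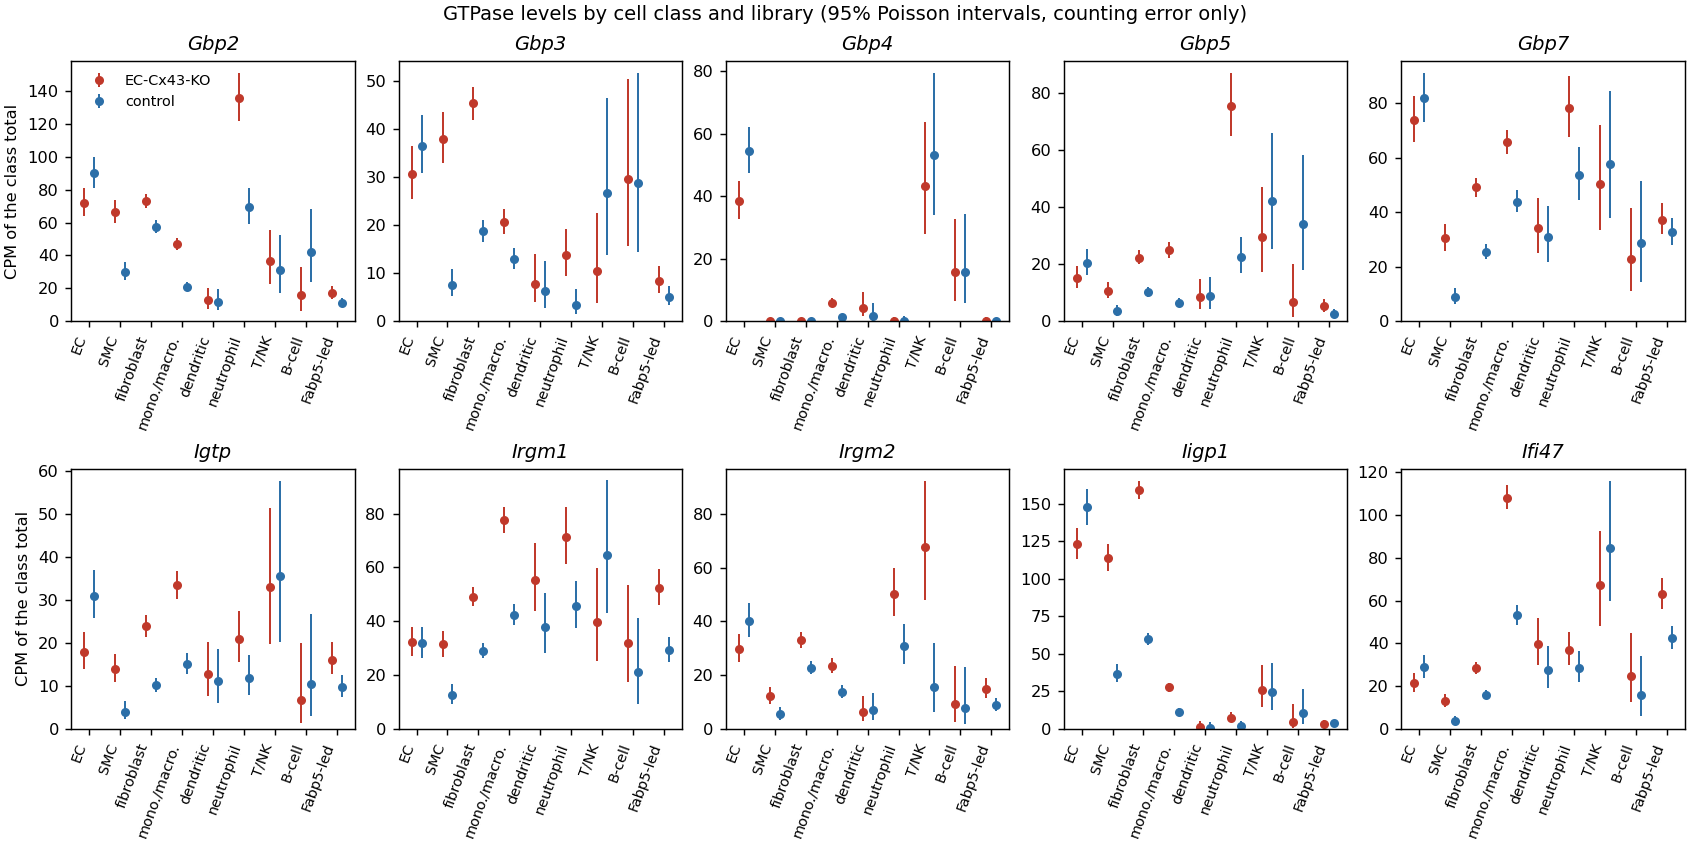
Level of each GTPase in CPM of the class total by cell class, on a linear axis from 0, with EC-Cx43-KO and control points and 95% Poisson intervals that cover counting error only. In EC-like cells EC-Cx43-KO lies near or below control, and in the fibroblast-like and SMC-like cells above it for each member with over 2 UMIs.

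Among the guanylate-binding proteins of EC-like cells, Gbp2, which coats pathogen vacuoles, was at 72.1 CPM (64.2 to 80.8; 299 UMIs) in EC-Cx43-KO and 90.4 CPM (81.3 to 100; 357 UMIs) in control, a log2 ratio of -0.33 (-0.55 to -0.10). Gbp4 was at 38.6 CPM (32.8 to 45.0; 160 UMIs) in EC-Cx43-KO and 54.4 CPM (47.4 to 62.2; 215 UMIs) in control, a log2 ratio of -0.50 (-0.80 to -0.19). Both were lower in EC-Cx43-KO beyond counting error, at less than 1.5-fold. Gbp3 had 30.6 CPM in EC-Cx43-KO and 36.5 CPM in control (log2 ratio -0.25, -0.61 to 0.10), and Gbp5, which promotes inflammasome assembly, 15.2 and 20.3 CPM (-0.42, -0.92 to 0.079). Gbp7 had 73.8 and 81.8 CPM (-0.15, -0.38 to 0.082). The intervals of these 3 ratios include 0.

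Among the immunity-related GTPases, the regulator Igtp was at 17.8 CPM (14.0 to 22.4; 74 UMIs) in EC-like cells of EC-Cx43-KO and 30.9 CPM (25.7 to 36.9; 122 UMIs) in control, a log2 ratio of -0.79 (-1.23 to -0.36). This was the value known when the members were chosen. The regulator Irgm2 was at 29.7 and 40.3 CPM (log2 ratio -0.44, -0.79 to -0.092), and the third regulator Irgm1, known for its part in autophagy and mitochondrial upkeep, at 32.1 CPM (133 UMIs) and 31.7 CPM (125 UMIs), a log2 ratio of 0.019 (-0.34 to 0.38). So of the 3 regulators, Igtp and Irgm2 lay below control and Irgm1 at its level. The effector Iigp1, which loads onto the Toxoplasma vacuole, had 123 CPM (113 to 134; 511 UMIs) and 148 CPM (136 to 160; 584 UMIs), a log2 ratio of -0.26 (-0.44 to -0.089), and Ifi47 had 21.2 and 28.9 CPM (-0.44, -0.86 to -0.030). In all, 9 of the 10 ratios were below 0, 6 of them with an interval below 0, and 1 member (Igtp) passed 1.5-fold lower, when 5.82% of the 11808 genes with enough UMIs in EC-like cells did so and 5.51% were as much higher. The median ratio was -0.37 for the 10 genes and -0.050 for all genes tested, so ratios below 0 were also the more common over all genes. The shares of all genes with a ratio or an interval below 0 were not counted.

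In SMC-like cells the 9 members with enough UMIs were all at least 1.5-fold higher in EC-Cx43-KO, where 5.58% of all genes tested were (4.56% were as much lower), with a median log2 ratio of 1.63 against -0.028 for all genes. Gbp3 had 37.9 CPM (32.9 to 43.5; 203 UMIs) in EC-Cx43-KO and 7.62 CPM (5.17 to 10.8; 31 UMIs) in control, a log2 ratio of 2.31 (1.76 to 2.91), the largest of the 9. Iigp1 had 114 CPM (105 to 123; 610 UMIs) and 36.8 CPM (31.2 to 43.2; 150 UMIs), a log2 ratio of 1.63 (1.37 to 1.90). In EC-like cells of the same libraries Iigp1 was below control beyond counting error (-0.26, -0.44 to -0.089). Gbp3 lay below it there with an interval that includes 0 (-0.25, -0.61 to 0.10). Igtp had 13.8 CPM (74 UMIs) and 3.93 CPM (16 UMIs), a log2 ratio of 1.81 (1.02 to 2.69), and Ifi47 12.9 and 3.68 CPM (1.81, 0.99 to 2.72). Gbp2, Gbp5, Gbp7, Irgm1 and Irgm2 had log2 ratios of 1.15 to 1.78. Gbp4 had 0 UMIs in SMC-like cells of both libraries, which allows up to 0.560 CPM in EC-Cx43-KO and 0.737 CPM in control (3 counts of the class total).

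In fibroblast-like cells 7 of the 9 members with enough UMIs were at least 1.5-fold higher in EC-Cx43-KO, where 5.77% of all genes tested were, and none was as much lower (5.70% of all genes). Iigp1 stood at 159 CPM (153 to 165; 2394 UMIs) in EC-Cx43-KO and 59.6 CPM (55.7 to 63.8; 854 UMIs) in control, a log2 ratio of 1.41 (1.30 to 1.53). Gbp3 had 45.3 and 18.7 CPM (log2 ratio 1.27, 1.07 to 1.48), and Igtp 23.8 and 10.1 CPM (1.25, 0.96 to 1.53). The 2 members that stayed under 1.5-fold were Gbp2, at 73.1 and 57.3 CPM (0.35, 0.22 to 0.48), and Irgm2, at 32.9 and 22.7 CPM (0.53, 0.33 to 0.74). Gbp2 and Irgm2 were also above control beyond counting error. Gbp4 had 2 and 1 UMIs in the class, too few for a ratio. The immunity-related GTPases summed to 293 and 137 CPM (log2 ratio 1.09, 1.02 to 1.17) and the guanylate-binding proteins to 190 and 112 CPM (0.77, 0.68 to 0.85).

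In monocyte/macrophage-like cells 9 of 10 members were at least 1.5-fold higher in EC-Cx43-KO (9.04% of all genes tested) and none as much lower (4.29%). Ifi47, an effector, was at 108 CPM (103 to 114; 1351 UMIs) in EC-Cx43-KO and 53.0 CPM (48.6 to 57.7; 534 UMIs) in control, a log2 ratio of 1.03 (0.88 to 1.18). Irgm1 was at 77.5 and 42.3 CPM (log2 ratio 0.87, 0.71 to 1.04), and Igtp at 33.4 and 15 CPM (1.15, 0.88 to 1.43). The largest ratios belonged to 2 members with low counts in control, Gbp4 at 5.77 CPM (72 UMIs) and 1.39 CPM (14 UMIs), with a log2 ratio of 2.05 (1.22 to 3.00), and Gbp5 at 24.8 CPM (309 UMIs) and 6.36 CPM (64 UMIs), with 1.96 (1.57 to 2.37). Gbp7, at 65.6 and 43.9 CPM (0.58, 0.41 to 0.75), just missed 1.5-fold, and Gbp3, at 20.7 and 12.9 CPM (0.68, 0.37 to 1.00), just passed it. In neutrophil-like cells 7 of 9 members passed (8.97% of all genes) and none was as much lower (10.4%), with Gbp2 at 136 and 69.7 CPM (0.96, 0.69 to 1.24) and Gbp5 at 75.3 and 22.5 CPM (1.74, 1.29 to 2.21). Neutrophil-like cells were shallow, with medians of 1646 and 1829.5 UMIs per cell, against 6722 and 6571 in monocyte/macrophage-like cells.

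**Figure D2:**
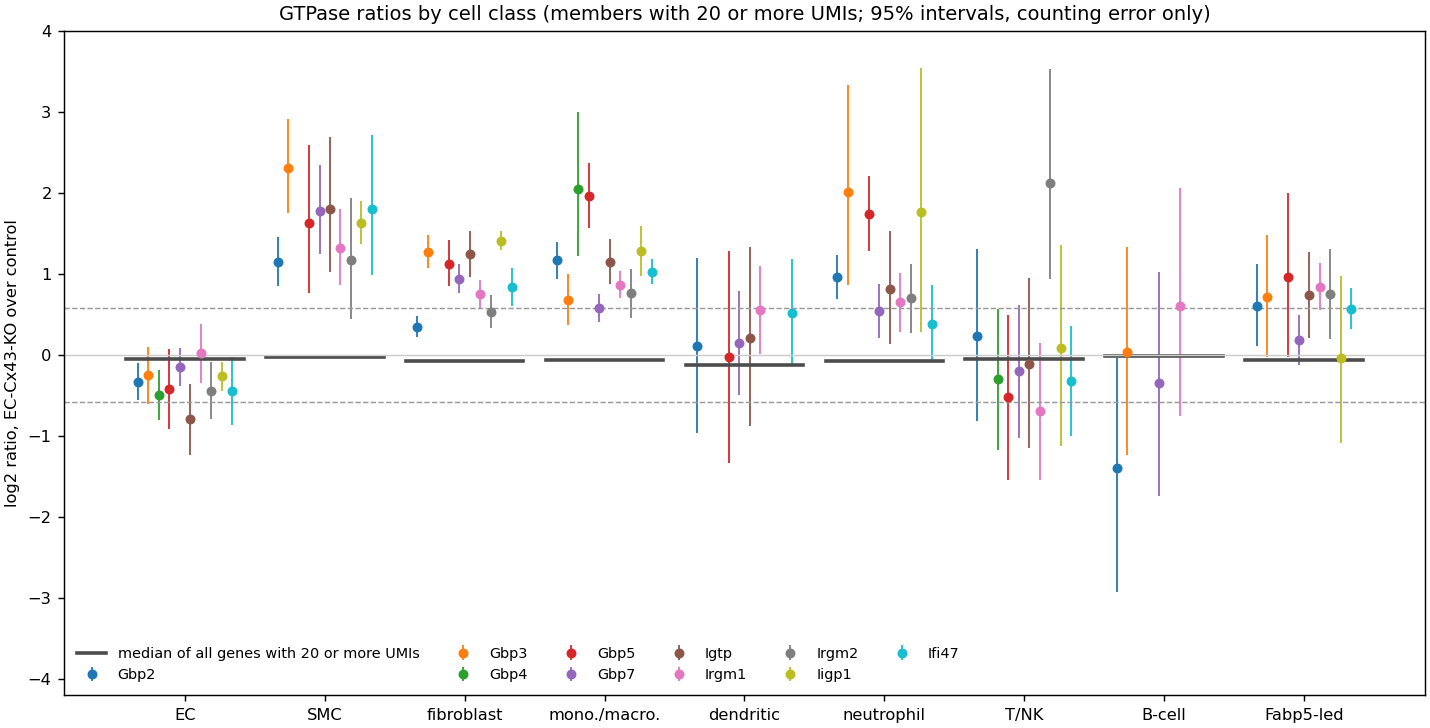
Log2 ratio of CPM, EC-Cx43-KO over control, of each GTPase by cell class, with 95% intervals that cover counting error only dashed lines at 1.5-fold and thick bars at the median of all genes with 20 or more UMIs. EC-like points lie near or below 0 (-0.79 to 0.019), and those of SMC-like cells lie above the upper dashed line (1.15 to 2.31).

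The dendritic-like, T/NK-like and B-cell-like classes shared no common direction in their calls. In dendritic-like cells none of 6 members with enough UMIs was called higher or lower (9.55% and 17.0% of all genes were), although Irgm1 had 55.4 CPM (78 UMIs) in EC-Cx43-KO and 37.9 CPM (48 UMIs) in control. Summed over the members, the dendritic-like log2 ratio was 0.35 (0.070 to 0.63). In T/NK-like cells 1 of 9 was called higher (10.2% of all genes), Irgm2 at 67.5 CPM (39 UMIs) and 15.5 CPM (7 UMIs; log2 ratio 2.12, 0.94 to 3.53), and 1 lower (12.9% of all genes), Irgm1 at 39.8 CPM (23 UMIs) and 64.4 CPM (29 UMIs), a log2 ratio of -0.69 whose interval (-1.55 to 0.15) includes 0. Of 4 members in B-cell-like cells 1 was called higher and 1 lower, when 10.9% and 13.7% of all genes were. An unnamed cluster led by Fabp5, with 591 and 828 cells, had 6 of 9 members called higher (5.01% of all genes) and none lower (5.79%), and a summed level of 218 and 145 CPM.

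Set against the other classes of the same library, fewer members were higher in EC-like cells in EC-Cx43-KO than in control. This shift follows from the EC-Cx43-KO over control ratios given above and is no separate result. Against SMC-like cells of the same library, 4 of 10 members were at least 1.5-fold higher and none lower in EC-like cells of EC-Cx43-KO (25.6% and 20.6% of all genes tested), against 10 and 0 in control (26.9% and 19.9%). Against fibroblast-like cells, 2 of 10 were higher and 1 lower in EC-Cx43-KO (27.8% and 26.4% of all genes), against 9 and 0 in control (27.1% and 26.8%). Against monocyte/macrophage-like cells, 3 were higher and 4 lower in EC-Cx43-KO (38.9% and 26.1%), against 8 and 1 in control (38.3% and 26.2%). Against neutrophil-like cells, 3 were higher and 5 lower in EC-Cx43-KO (62.6% and 22.4%), against 5 and 0 in control (62.3% and 22.5%). For Igtp the log2 ratio of EC-like over SMC-like cells was 0.37 in EC-Cx43-KO and 2.97 in control, and that of EC-like over monocyte/macrophage-like cells -0.90 (-1.28 to -0.54) and 1.04 (0.69 to 1.40). Gbp4 was higher in EC-like than in monocyte/macrophage-like cells in both libraries, with a log2 ratio of 2.74 (2.33 to 3.16) in EC-Cx43-KO and 5.29 (4.51 to 6.19) in control. Ifi47 was below monocyte/macrophage-like cells in both, by -2.35 (-2.68 to -2.04) and -0.88 (-1.18 to -0.58).

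**Figure D3:**
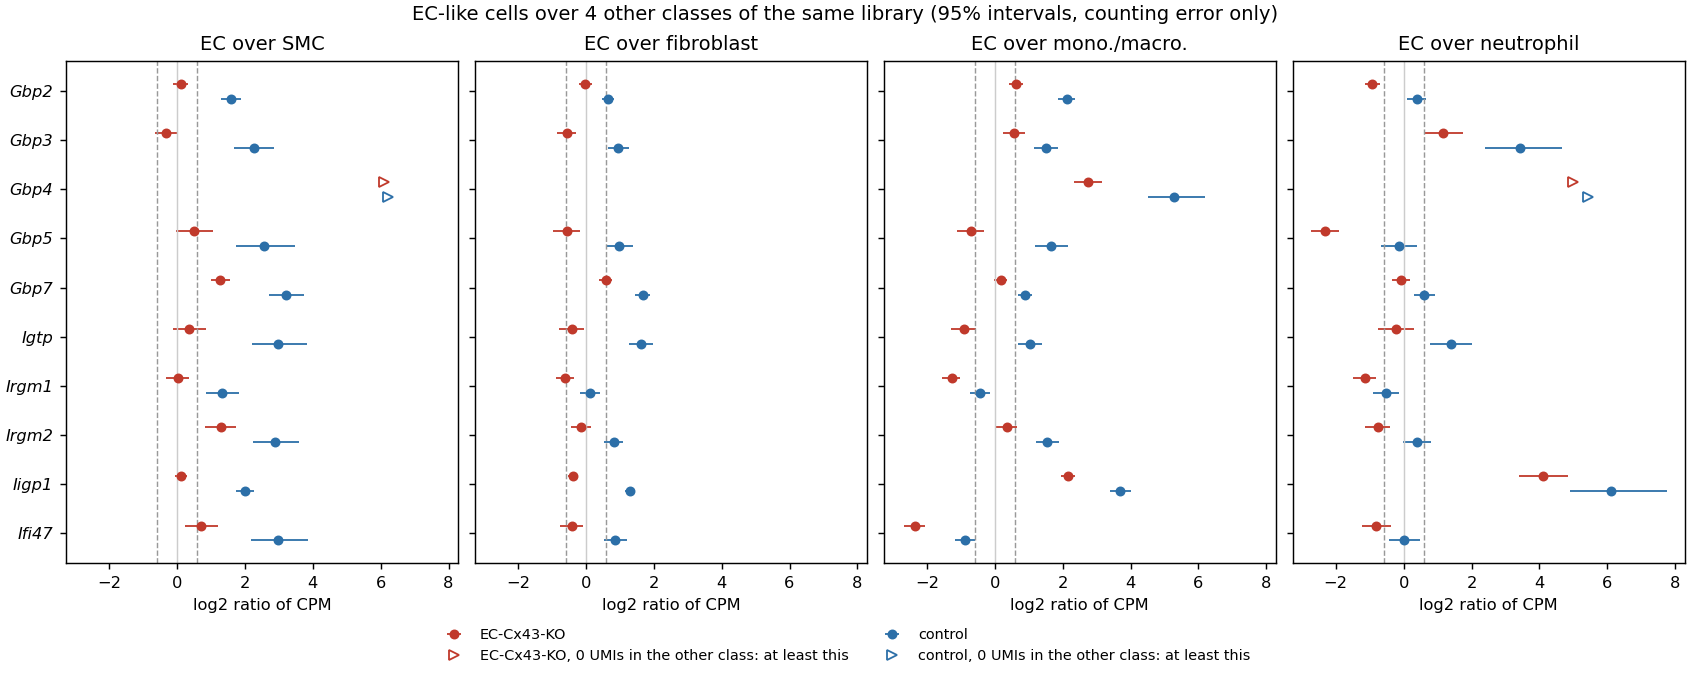
Log2 ratio of CPM of EC-like cells over 4 other classes of the same library, by GTPase, with 95% intervals that cover counting error only; triangles are lower bounds where the other class had 0 UMIs, and Gbp4 over fibroblast-like cells (2 and 1 UMIs there) is not drawn. Control points lie to the right of EC-Cx43-KO points for each member drawn with an interval, which follows from the ratios between the libraries.

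By class order, EC-like cells held the highest level of 6 members (Gbp2, Gbp3, Gbp4, Gbp7, Irgm2 and Iigp1) in control. In EC-Cx43-KO the highest level was in neutrophil-like cells for Gbp2, Gbp5 and Gbp7, in fibroblast-like cells for Gbp3 and Iigp1, in T/NK-like cells for Gbp4 and Irgm2, and in monocyte/macrophage-like cells for Igtp, Irgm1 and Ifi47. Many neighbours in that order overlapped within their intervals: of 8 neighbour pairs, all 8 overlapped for Gbp3, Igtp and Irgm1 in EC-Cx43-KO, and 5 for Gbp2, Iigp1 and Ifi47. Top and second class did not overlap for Gbp2, Gbp5, Iigp1 and Ifi47 in EC-Cx43-KO, nor for Gbp2, Iigp1 and Ifi47 in control.

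The lower level in EC-like cells was uneven between EC-like subclusters. In the largest, led by Rtn2 (167 cells in EC-Cx43-KO and 126 in control), the 10 genes summed to 408 and 662 CPM (log2 ratio -0.70, -0.84 to -0.55), with Iigp1 at 99.2 and 203 CPM (-1.03, -1.32 to -0.76) and Igtp at 12.4 and 33.6 CPM (-1.44, -2.25 to -0.68). In a subcluster led by Acta2 (84 and 61 cells) the sums were 600 and 772 CPM (-0.36, -0.56 to -0.16), with Igtp at 29.7 and 67.1 CPM. In a subcluster led by Lyve1 (122 and 131 cells) they were 534 and 527 CPM (0.018, -0.18 to 0.22). So the lower level was seen in the Rtn2-led and Acta2-led cells, and the interval of the Lyve1-led cells included 0. In the subcluster led by Pbp2 (41 and 43 cells) the sums were 215 and 267 CPM and in that led by Atp6v0d2 (32 and 30 cells) 588 and 562 CPM, with intervals that include 0. Markers of another class stood among the 10 leading genes of a pair of subclusters, with no EC marker there: the SMC marker Acta2 in the Acta2-led cells, and the fibroblast markers Dcn and Col3a1 in the Atp6v0d2-led cells. The 12 EC markers summed to 9655 and 9024 CPM in the Acta2-led and to 7751 and 8579 CPM in the Atp6v0d2-led cells. Without both subclusters the summed log2 ratio of EC-like cells was -0.33, with 9 of 10 ratios below 0 and Igtp at -0.76. Capillary-led cells (43 and 7) summed to 582 and 325 CPM, the control value resting on 13 UMIs. Markers of other cells in EC-like cells were measured too: the 12 monocyte/macrophage markers summed to 113 and 77.2 CPM, the 8 neutrophil markers to 113 and 149 CPM, the 11 T/NK markers to 2.41 and 2.79 CPM with Cd3e, Cd3d and Cd3g at 0 in both, and the 5 erythroid markers to 1234 and 14.7 CPM. The part of the erythroid transcripts in the GTPase values was not tested.

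The members were higher in EC-Cx43-KO in each fibroblast-like cluster: the sums were 568 and 279 CPM in the cells led by Comp (log2 ratio 1.03, 0.92 to 1.13), 564 and 311 CPM in those led by Ccl11 (0.86, 0.78 to 0.94), 180 and 94.2 CPM in those led by Il11 (0.93, 0.72 to 1.15), and 305 and 136 CPM in those led by Veph1 (1.17, 0.79 to 1.56). Monocyte/macrophage-like cells differed. A cluster led by interferon-induced genes such as Cxcl10 and Ifit2, with 188 cells in EC-Cx43-KO and 11 in control, had sums of 1940 and 2608 CPM, while the clusters led by Chil3 had 219 and 182 CPM, by Ltc4s 205 and 213 CPM, by Lyve1 443 and 404 CPM, and by Adgre4 160 and 125 CPM. Without the interferon-led cluster 2 of the 10 members remained at least 1.5-fold higher, Gbp5 (log2 ratio 1.19) and Iigp1 (0.79), the summed log2 ratio was 0.24, and Gbp4 turned to -0.39. In the Lyve1-led cells, which carried the highest Iigp1 level of these clusters in both libraries and numbered 251 in EC-Cx43-KO and 88 in control, Iigp1 was at 135 and 155 CPM (-0.20, -0.59 to 0.20). Its ratio was -0.81 (-1.93 to 0.25) in the Chil3-led and 0.13 (-1.92 to 2.10) in the Ltc4s-led cells, so the 0.79 over the remaining clusters was not seen within any of these 3. Most of the monocyte/macrophage-like ratio was thus lost without the interferon-led cluster. That loss could be foreseen, as the cluster was led by interferon-induced genes and held 188 and 11 cells. The fibroblast-like ratio was found in each of 4 clusters, none of them led by such genes, so the classes cannot be compared here.

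Across cells the summed GTPase level followed the type I interferon-led genes of the same cell. Cells were thinned to 1000 UMIs and put in 3 bins by their UMIs of 12 type I-led genes (0, 1 to 2, and 3 or more). In fibroblast-like cells the GTPases summed to 182 and 170 CPM at 0 such UMIs in EC-Cx43-KO and control, to 522 and 395 CPM at 1 to 2, and to 1763 and 1283 CPM at 3 or more. In monocyte/macrophage-like cells they summed to 105 and 106 CPM, 192 and 195 CPM, and 1293 and 753 CPM in the same bins, and in SMC-like cells to 108 and 84.4 CPM, 500 and 535 CPM, and 2646 and 2947 CPM, the last from 28 and 2 cells. So at matched type I-led counts of 0 or 1 to 2, monocyte/macrophage-like cells of both libraries had GTPase levels within counting error of each other. The top bin held 13.3% of fibroblast-like cells in EC-Cx43-KO and 2.98% in control, with 50.1% and 16.1% of the GTPase UMIs, and 25.9% and 11.9% of monocyte/macrophage-like cells, with 75.5% and 42.7%. EC-like cells differed in that those with 0 type I-led UMIs already had 364 CPM (344 to 385) in EC-Cx43-KO and 495 CPM (471 to 519) in control, and those with 1 to 2 had 727 and 902 CPM. The lower EC-like level was thus present within both of these bins. At 3 or more the order turned, with 1467 CPM (1261 to 1697) from 18 cells of EC-Cx43-KO and 1088 CPM (754 to 1521) from 6 cells of control, and these intervals overlap.

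**Figure D4:**
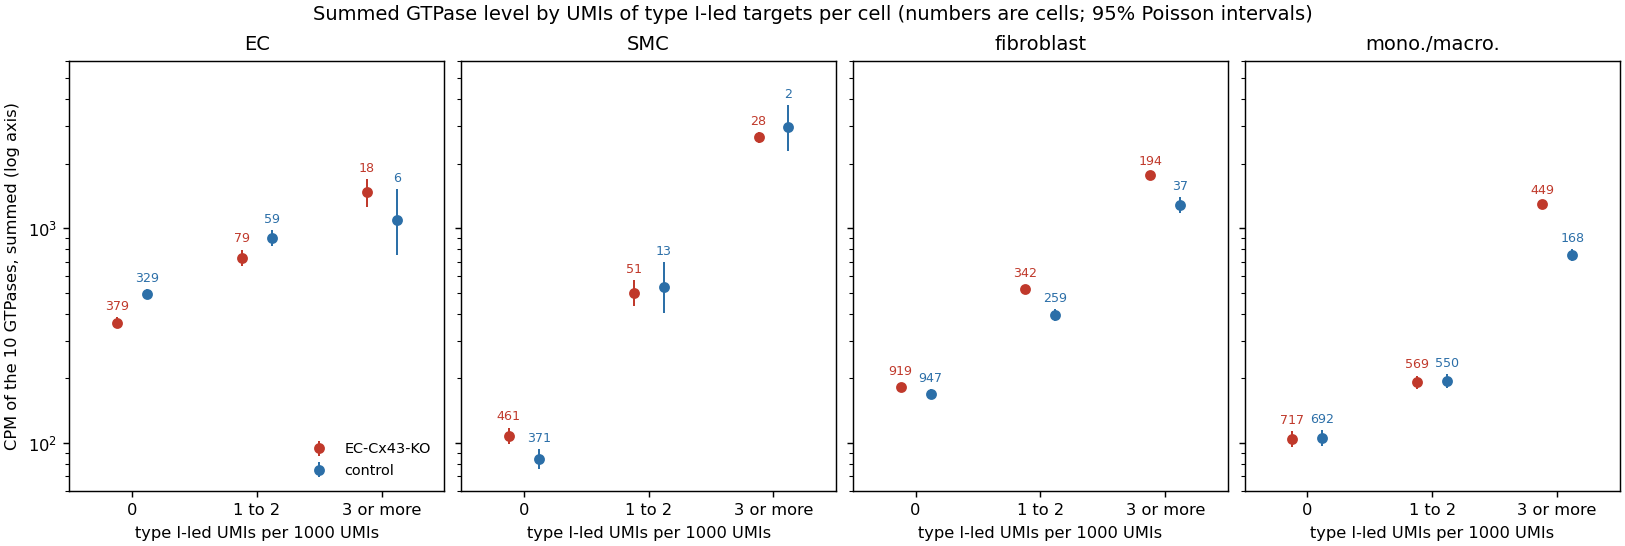
Summed GTPase level (CPM, log axis) of cells with 0, 1 to 2, and 3 or more UMIs of type I interferon-led genes after thinning to 1000 UMIs, by class and library, with 95% Poisson intervals that cover counting error only. The level rises from bin to bin in each class, and EC-like cells with 0 such UMIs lie above those of the other classes.

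Each library held cells with Xist UMIs and cells with UMIs of 4 Y-linked genes (Ddx3y, Uty, Kdm5d and Eif2s3y), so both pools included cells of both sexes. Of kept cells with one kind only, 41.6% in EC-Cx43-KO and 27.1% in control were Y-linked, and in EC-like cells 58.0% and 30.5%. The split had a large bearing on the GTPase ratios outside EC-like cells. In kept cells with Xist UMIs (2751 and 3123) the 10 genes summed to 513 and 199 CPM, a log2 ratio of 1.36 (1.32 to 1.41), and 9 of 10 were at least 1.5-fold higher in EC-Cx43-KO (6.86% of all genes tested, with 5.76% as much lower). In kept cells with Y-linked UMIs (1956 and 1159) they summed to 228 and 328 CPM, a log2 ratio of -0.52 (-0.59 to -0.46), 10 of 10 ratios were below 0, and 3 were at least 1.5-fold lower (4.18% of all genes, with 6.92% as much higher). There the median log2 ratio was -0.54 for the 10 genes and -0.031 for all genes tested. The share of all genes below 0 was not counted. Among kept cells with one kind only, the higher levels in EC-Cx43-KO were thus found in those with Xist UMIs. Cells with neither kind were not measured apart. They were 32.8% of kept cells in EC-Cx43-KO and 30.6% in control, and 73.9% and 76.2% of neutrophil-like cells.

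Within classes the same held in fibroblast-like and monocyte/macrophage-like cells, while SMC-like cells with Y-linked UMIs did not lie below control. In fibroblast-like cells the sums were 732 and 195 CPM with Xist UMIs (9 of 9 members called higher, 5.45% of all genes, with 7.81% lower) and 227 and 328 CPM with Y-linked UMIs (3 of 9 called lower, 6.34% of all genes, with 5.47% higher), and Iigp1 stood at 268 and 43.3 CPM with Xist UMIs against 53.7 and 81.8 CPM with Y-linked UMIs. In monocyte/macrophage-like cells the sums were 528 and 153 CPM (10 of 10 higher, 7.92% of all genes, with 6.22% lower) and 206 and 379 CPM (6 of 9 lower, 7.01% of all genes, with 8.27% higher). There Iigp1 was at 37.6 CPM (242 UMIs) in EC-Cx43-KO and 1.15 CPM (7 UMIs) in control with Xist UMIs, a log2 ratio of 5.03 (3.96 to 6.36), and at 9.14 CPM (34 UMIs) and 37.2 CPM (92 UMIs) with Y-linked UMIs, a log2 ratio of -2.02 (-2.64 to -1.44). In SMC-like cells the sums were 517 and 106 CPM with Xist UMIs (9 of 9 higher, 7.60% of all genes, with 7.51% lower) and 149 and 127 CPM with Y-linked UMIs (2 of 6 higher and 1 lower, 7.65% and 7.90% of all genes; log2 ratio of the sums 0.23, -0.067 to 0.53). This last value rests on the cells taken: with at least 2 Y-linked UMIs (168 and 64 cells) the sums were 163 and 80.6 CPM, a log2 ratio of 1.01 (0.61 to 1.43), and Gbp2 was at a log2 ratio of 0.45 (-0.33 to 1.30), against -0.81 (-1.35 to -0.26) with at least 1. In fibroblast-like and monocyte/macrophage-like cells the 2 kinds thus had opposite directions within 1 class ratio, and how many animals stand behind each kind was not given.

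In EC-like cells both kinds lay below control. The sums were 534 CPM in EC-Cx43-KO and 611 CPM in control with Xist UMIs (log2 ratio -0.19, -0.32 to -0.066; 147 and 207 cells) and 380 and 446 CPM with Y-linked UMIs (-0.23, -0.40 to -0.055; 203 and 91 cells). With at least 2 Y-linked UMIs the log2 ratio of the sums was -0.12 (-0.32 to 0.079), an interval that includes 0. T/NK-like cells also had sums below control in both kinds, with log2 ratios of -0.11 (-0.52 to 0.30) with Xist UMIs and -0.32 (-0.87 to 0.25) with Y-linked UMIs, on few cells. Of the EC-like members, 2 of 10 were called lower with Xist UMIs (10.3% of all genes tested, with 4.98% as much higher). These were Gbp2 at 56.0 and 99.1 CPM (-0.82, -1.20 to -0.46) and Gbp5 at 12 and 22.7 CPM (-0.92, -1.78 to -0.12). With Y-linked UMIs 1 was called lower in EC-like cells (8.0% of all genes, with 8.60% as much higher). It was Igtp, at 13.7 CPM (25 UMIs) and 28.3 CPM (28 UMIs), a log2 ratio of -1.05 (-1.89 to -0.22). With Xist UMIs Igtp was at 26.7 CPM (40 UMIs) and 32.0 CPM (72 UMIs), a log2 ratio of -0.26 (-0.86 to 0.31), so the 1.5-fold difference of Igtp in all EC-like cells was not met there. In cells with at least 2 Xist UMIs (97 and 163) it was met, at 21.7 CPM (24 UMIs) and 33.0 CPM (63 UMIs), a log2 ratio of -0.60 (-1.35 to 0.094). Level also differed by kind within a library: EC-like cells with Xist UMIs had the higher sum in both.

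**Figure D5:**
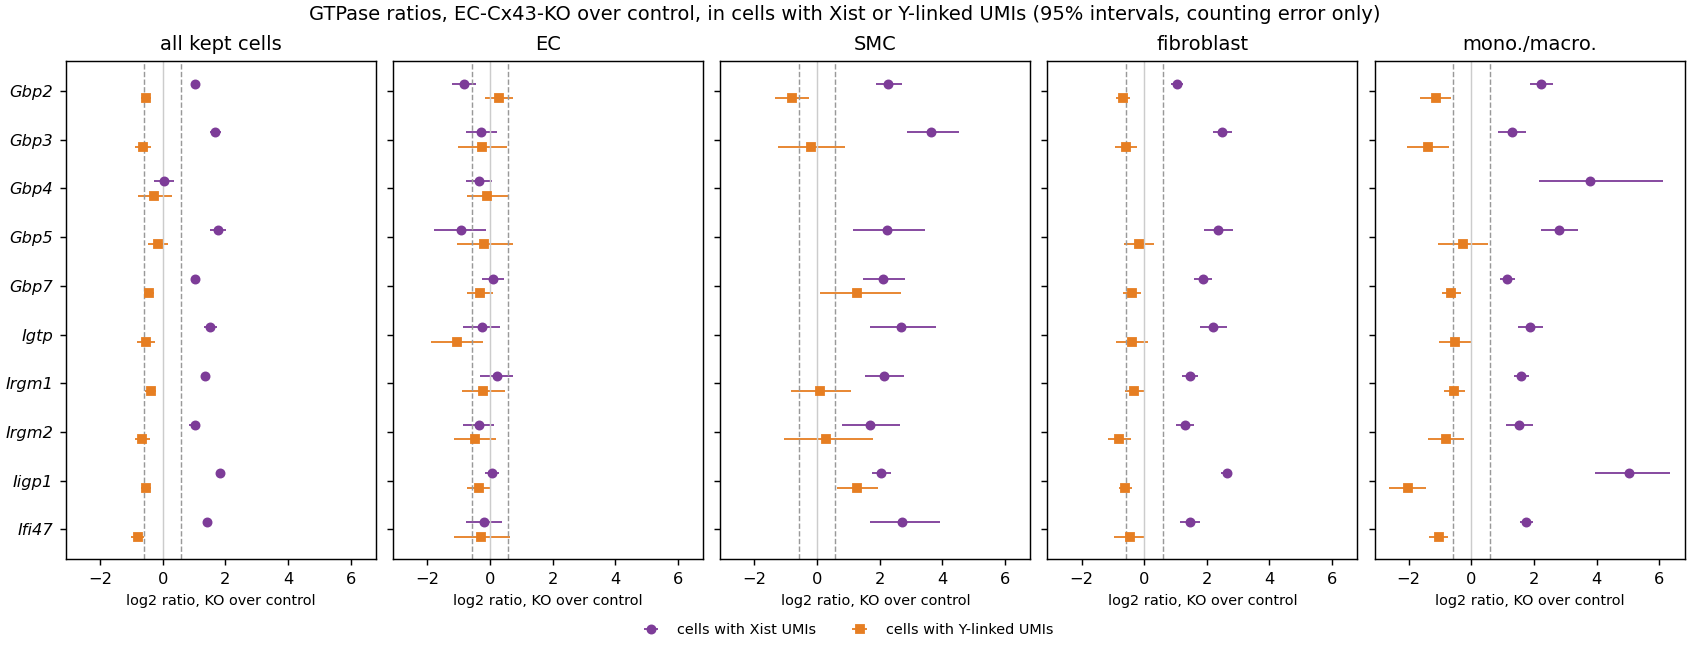
Log2 ratio of CPM, EC-Cx43-KO over control, of each GTPase in cells with Xist UMIs and in cells with Y-linked UMIs, by class, with 95% intervals that cover counting error only and dashed lines at 1.5-fold. In fibroblast-like and monocyte/macrophage-like cells the Xist points lie to the right, at up to 5.03, and the Y-linked points lie left of 0. In SMC-like cells the Xist points also lie to the right, and the Y-linked points lie on both sides of 0.

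The share of cells with a UMI of any of the 10 genes was measured after thinning each cell to 1000 UMIs. It was 33.4% (29.2 to 37.8) of EC-like cells in EC-Cx43-KO and 34.8% (30.1 to 39.7) in control, 15.9% and 6.22% of SMC-like cells, 26.3% and 17.9% of fibroblast-like cells, and 25.3% and 17.2% of monocyte/macrophage-like cells, with medians of 7018 and 7651, 8850.5 and 9058, 7248 and 8038, and 6756 and 6581.5 UMIs per cell before thinning. The thinning left out 13 and 4, 9 and 25, 139 and 143, and 10 and 2 cells. No class is known to lack these genes, and SMC-like cells of control had the lowest share. Without thinning the shares were 80.2% and 86.2% of EC-like, 51.7% and 46.2% of SMC-like, 59.0% and 54.6% of fibroblast-like and 58.5% and 52.5% of monocyte/macrophage-like cells. Cells with UMIs of 2 or more members were 4.81% and 0.518% of SMC-like, 9.97% and 3.62% of fibroblast-like and 8.01% and 2.70% of monocyte/macrophage-like cells. In EC-like cells they were 11.1% (8.45 to 14.3) and 6.60% (4.36 to 9.52), and 57.5% and 66.1% unthinned, so no order is read from them.

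Other genes of the interferon pathways, taken from lists chosen with earlier results known, showed how far the pattern extended. The type I-led targets, which respond foremost to interferon-alpha and interferon-beta, were higher in EC-Cx43-KO also in EC-like cells, 7 of 12 with none lower (median log2 ratio 0.64; 5.51% of all genes tested were higher), among them Isg15, a ubiquitin-like modifier, at 67.0 and 21 CPM (1.67, 1.31 to 2.04) and Ifit1, which binds foreign RNA, at 35.7 and 16.5 CPM (1.12, 0.69 to 1.56). Of the interferon-gamma-led targets 1 of 11 was called higher there (Cxcl10) and 4 lower (median -0.39), beside 5.51% and 5.82% of all genes tested. The 4 were the antigen presentation genes Cd74, at 185 and 653 CPM (-1.82, -1.94 to -1.70), H2-Aa, at 49.0 and 111 CPM (-1.18, -1.43 to -0.94), H2-Ab1 (-1.12) and H2-Eb1 (-1.04). Receptors and signalling genes for interferon-gamma did not differ by 1.5-fold in EC-like cells, 0 of 10 in either direction, with the receptor Ifngr1 at 276 and 283 CPM, the kinase Jak1 at 144 and 140 CPM and the factor Irf1 at 52.8 and 50.1 CPM.

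In SMC-like cells 10 of 11 type I-led and 5 of 8 interferon-gamma-led targets were called higher, in fibroblast-like cells 11 of 12 and 9 of 12, and in monocyte/macrophage-like cells 11 of 12 and 6 of 12, with none lower in any of these. In the same order 5.58%, 5.77% and 9.04% of all genes tested were called higher. The chemokine Cxcl10 was at 672 and 82.1 CPM in monocyte/macrophage-like cells (log2 ratio 3.03, 2.93 to 3.14), at 54.4 and 3.77 CPM in fibroblast-like cells (3.85, 3.45 to 4.28) and at 37.9 and 0.737 CPM in SMC-like cells, the last on 203 and 3 UMIs (5.68, 4.12 to 7.97). Irf7, which amplifies type I interferon responses, was at 208 and 63.9 CPM in monocyte/macrophage-like cells (1.70, 1.58 to 1.83). Of the antigen presentation genes named above, 3 were lower in those cells by less than 1.5-fold, H2-Aa at 172 and 222 CPM (-0.37, -0.46 to -0.29), H2-Ab1 at 144 and 175 CPM (-0.29, -0.38 to -0.19) and Cd74 at 727 and 795 CPM (-0.13, -0.17 to -0.086). Of the autophagy and inflammasome partners of the GTPases 1 of 16 was called higher in EC-like cells (Nlrp3), 1 of 13 lower in SMC-like cells (Nlrp3), 1 of 16 higher in fibroblast-like cells (Aim2) and 0 of 16 either way in monocyte/macrophage-like cells, with medians of -0.011, 0.006, 0.043 and 0.026 in these 4 classes. Casp4, the gene of caspase-11, was at 181 and 126 CPM in monocyte/macrophage-like cells (0.53, 0.43 to 0.63), higher in EC-Cx43-KO at less than 1.5-fold. Gabarap, a ubiquitin-like protein that works with the GTPases on vacuoles, was at 893 and 886 CPM in monocyte/macrophage-like cells.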

How the data were processed

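Single-cell RNA-seq (10x Genomics 3′) was measured in 1 EC-Cx43-KO and 1 control library. The UMI counts per gene and barcode were deposited by the authors, per the file headers without normalization; per the submitters' processing notes Cell Ranger 8.0.1, STAR and mm10 were used. The lowest barcode total was 501 UMIs, so a cell call preceded deposit.

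Cells with under 300 genes or over 15% mitochondrial UMIs were dropped. Doublets were ranked against simulated ones and 476 EC-Cx43-KO (6.17%) and 363 control cells (5.39%) were removed, at an assumed rate of 0.008 per 1000 cells. On log-scaled counts, 2000 variable genes were reduced to 30 components and clustered on their 20 nearest neighbours (Leiden, resolution 1.0, and 0.6 for EC-like cells). The GTPases and the interferon lists were kept out of the clustering. Clusters were named from marker lists with at least 3 detected, and a cluster whose leading genes went against its name stayed unnamed. Free RNA was estimated at 6.85% of the profile in EC-Cx43-KO and 5.76% in control. Each is the median over 50 pairs of a class and the marker list of another class. The pairs spread widely, and not every class lacked the list: dendritic markers in B-cell-like cells stood at 742% and 973% of the profile.

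UMIs were summed per class and library and divided by the class total (CPM). Log2 ratios are EC-Cx43-KO over control, and a library with fewer than 3 UMIs took 3. Intervals at 95% are exact Poisson for levels, exact conditional binomial for ratios and Clopper-Pearson for shares, and cover counting error only. With 1 library per group no test was made; a member was called at 1.5-fold with at least 20 UMIs over both libraries, beside the share of all genes called. The calls were tried on counts simulated from the EC-like totals, with 2-fold changes in genes of at least 100 UMIs. Such counts hold no differences between animals or libraries, and smaller changes, lower counts and other classes were not tried. Cells were also split by Xist and by 4 Y-linked genes, and thinned to 1000 UMIs for shares. All 10 members are named, with other genes of the families from among those with at least 50 UMIs and up to 4 genes of most UMIs per pathway list. The members, the lists and the splits were chosen with earlier results of these data known. Alternatives tried were the cell filters, doublets kept, resolution, interferon genes in the clustering, scaling, single-cell means, subtraction of free RNA, the UMI minimum, the fold, the depth of thinning and leaving out clusters. Plots were drawn with matplotlib 3.10.9, clusters came from leidenalg 0.10.2 on igraph 0.11.9, neighbours from scikit-learn 1.9.0, and intervals from SciPy 1.17.1, with pandas 2.3.3 and NumPy 2.4.6 in Python 3.11.15.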

Additional observations from a re-analysis of the deposited data

Results flagged for a closer look

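Igtp had opposite directions in EC-like cells and in 4 other classes: its log2 ratio in EC-like cells minus that in SMC-like cells was -2.60, minus that in fibroblast-like cells -2.04, minus that in monocyte/macrophage-like cells -1.94, and minus that in neutrophil-like cells -1.60. The genes were chosen with the lower Igtp level in endothelial cells and its higher levels in myeloid and stromal cells known. These differences restate values used in that choice and were not tested.

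In kept cells with Xist UMIs 3 members were higher in EC-Cx43-KO while in kept cells with Y-linked UMIs they were lower, both by at least 1.5-fold. The log2 ratio with Xist UMIs minus that with Y-linked UMIs was 2.31 for Gbp3, 1.67 for Irgm2 and 2.21 for Ifi47. The difference was not tested, and with 1 library per group sex, animal and genotype cannot be told apart.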

How the results depend on the processing

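Counts of members at least 1.5-fold apart held within 1.5 times under most alternatives. Of EC-like members 1 was lower as reported, 2 with the mean of single-cell CPM, 2 with free RNA subtracted and 0 at 2-fold. Of SMC-like members 9 were higher as reported and 5 with at least 100 UMIs, where 5 were tested. Of fibroblast-like members 7 were higher as reported and 4 at 2-fold, and of neutrophil-like members 7 as reported, 3 at 2-fold and 4 with at least 100 UMIs, where 6 were tested. Of monocyte/macrophage-like members 9 were higher as reported and 2 without the interferon-led cluster, where Gbp4 turned to a log2 ratio of -0.39. In SMC-like cells with at least 2 Y-linked UMIs 0 members were lower, against 1 with at least 1, and the log2 ratio of the sums was 1.01 against 0.23. The log2 ratio of the share of cells with a member UMI turned in dendritic-like cells, from -0.39 to 0.14 at 500 UMIs and 0.032 unthinned, and in T/NK-like cells, from 0.20 to -0.62 at 500 UMIs, -0.33 at 2000 UMIs and -0.33 unthinned. The cause of these changes was not tested, beyond the fewer members tested where named. The share of all genes called was not counted under the alternatives, so the counts of members have no such background there. Over the alternatives the log2 ratio of the summed members ran from -0.36 to -0.26 in EC-like, 1.24 to 1.63 in SMC-like, 0.86 to 1.03 in fibroblast-like, 0.24 to 1.05 in monocyte/macrophage-like and 0.77 to 0.95 in neutrophil-like cells. Including the Fabp5-led or the shallow EC-marker cluster, and leaving out the interferon-led cluster, the capillary-led cluster, the EC-like subclusters led by markers of another class or the barcodes in both libraries, were chosen after seeing the data. No paired analysis was possible because each group has 1 library. Leaving out an EC-like subcluster led by leukocyte genes was not run, since there was none. Depth limits all members in dendritic-like and B-cell-like cells. Gbp4 had 0 UMIs in SMC-like cells of both libraries and 2 and 1 in fibroblast-like cells, though both classes held more UMIs than EC-like cells. It also had too few UMIs for a ratio in dendritic-like, neutrophil-like and B-cell-like cells and in the Fabp5-led cluster.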

Other observations

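Other genes of the GTPase families, taken from a list chosen with earlier results known, were counted in the same way. In EC-like cells 0 of 11 with enough UMIs were at least 1.5-fold higher and 2 were as much lower, with a median log2 ratio of -0.12, beside 5.51% and 5.82% of all genes tested in that class. Gvin1, a very large inducible GTPase, was at 66.3 CPM in EC-Cx43-KO and 61.8 CPM in control (0.10, -0.15 to 0.36), and Gbp8, next to Gbp4, at 53.3 and 62.0 CPM (-0.22, -0.49 to 0.049). Tgtp2, 1 of the 2 lower, was at 6.99 CPM (29 UMIs) and 10.6 CPM (42 UMIs), a log2 ratio of -0.60 (-1.34 to 0.11). The log2 ratio was -0.54 for Irgq, -0.13 for Gm4951, -0.12 for Gbp6, 0.002 for Gbp9 and 0.008 for 9930111J21Rik2. In fibroblast-like cells 9 of 10 were called higher (5.77% of all genes), among them Gbp6 at 16.7 and 7.96 CPM (1.07, 0.75 to 1.40) and Gm4951 at 27.7 and 9.36 CPM (1.57, 1.28 to 1.86). In monocyte/macrophage-like cells 7 of 12 were (9.04% of all genes), with Tgtp2, an effector of the immunity-related kind, at 10.3 and 1.49 CPM (2.78, 2.01 to 3.66). Irgq was at 11.6 and 13.5 CPM in fibroblast-like cells (-0.23, -0.53 to 0.073).

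Over 16 points, 8 classes in each of the libraries, the 45 pairs of members had a median Pearson correlation of 0.396 on log2(CPM + 1), from -0.220 to 0.868. The genes outside the families most like the members' mean profile, among 14218 with at least 100 UMIs, were Tnfsf10 (0.745), Ctla2b (0.741), Anp32a (0.727), Nck1 (0.726) and Mcu (0.725). The points share libraries, depth and cell mix, and these values are descriptions.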
